A study of Sus scrofa with 2 samples.

Results

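The 10 genes described here encode secreted matricellular proteins of pig muscle: CCN1 and CCN2, the thrombospondins THBS1, THBS2 and THBS4, periostin (POSTN), tenascin-C (TNC), osteonectin (SPARC), osteopontin (SPP1) and tenascin-X (TNXB). They are 10 of the 21301 features counted in each library and were picked out by their names, with earlier results of these data known. For 9 of them the symbol stands in the deposited gene list. TNXB is listed there by its Ensembl identifier alone and was matched through a reference table.

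Matricellular proteins are secreted into the extracellular matrix, where they bind collagens, integrins, proteoglycans and growth factors and alter how cells attach, migrate and respond to signals, rather than serving as the main load-bearing fibres. CCN1 and CCN2 are classical transcriptional targets of the mechanosensitive coactivators YAP and TAZ, and CCN2, THBS1, POSTN and TNC also respond to TGF-beta. In skeletal muscle the matrix is laid down mostly by fibroblasts, by the fibro-adipogenic progenitors that can form both fibroblasts and adipocytes, and by the tenocytes of tendon and of its insertions.

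The cells came from piglet longissimus dorsi, the long muscle of the back, in 2 breeds that differ in intramuscular fat according to the study's design text: Yorkshire and the Guangdong small-eared spotted pig, here GDSS. The labels call the cells intramuscular vascular stem cells, and the series title names fibro-adipose progenitors without CD9. Each piglet gave 1 g of muscle, red cells were lysed, dead cells were removed with magnetic beads, and droplet libraries were made on the 10x Genomics platform. No treatment is named, both titles carry the mark "P0", and neither its meaning nor the number or sex of the piglets is given in the sources used here.

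There was 1 library per breed, so no difference between breeds has a replicate check and no test is given. Breed, animal, preparation and library cannot be told apart. All intervals are 95% intervals and cover counting error only. Filtering left 10649 cells in GDSS and 12763 in Yorkshire, whose median depths were 2882 and 3005 UMIs (counted molecules), and 38 cell barcodes of kept cells occurred in both libraries.

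Cells were assigned to classes by gates on marker genes that include none of the 10. Stromal cells, gated on fibroblast and progenitor genes such as PDGFRA, DCN and COL1A1, made up 77.7% of GDSS cells (8277) and 18.9% of Yorkshire cells (2408). Within them, tenocytes were gated on TNMD with further tendon genes (352 and 269 cells), and smaller gates were named after KERA, PI16, MME, FMO1, IRF8 and HHIP or after nerve sheath genes. The other classes were muscle satellite cells (344 GDSS and 4008 Yorkshire cells), endothelial cells (230 and 1536), mural cells of vessel walls (350 and 871), glia of nerves (2.30% and 2.02% of cells), macrophages (268 and 104) and myofibres (57 and 370). A further 8.20% of GDSS and 24.9% of Yorkshire cells fell in no class. The label of vascular stem cells therefore covered a mixture with 8 gated classes, lymphatic endothelium (5 and 32 cells) being the smallest. Check genes that had not been used for gating were 1.26 to 97.5 times as high in their own class as in all cells of the library, the lowest being the stromal genes in GDSS, where most cells are stromal. Of satellite cells, 54.1% in GDSS and 44.2% in Yorkshire lay at the margin of their gate, as did 49.4% and 34.1% of glia, so these classes are less sharply drawn than the stromal one (1.60% and 6.94%).

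Levels are given in CPM, the UMIs of a gene summed over the cells of a class and scaled to 1000000 UMIs of that class, and are compared between cells and libraries, not between genes. Free RNA in the droplets adds a low count everywhere. Its level for each gene was estimated as the gene's level in all cells times the lowest relative level, in that class, of the check genes of any other class. Where the stromal check genes stood higher than that lowest level, it is a low estimate for stromal genes. A gene counted as measured in a comparison with at least 100 UMIs over both sums, and as apart when its ratio was at least 1.5.

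**Figure D1:**
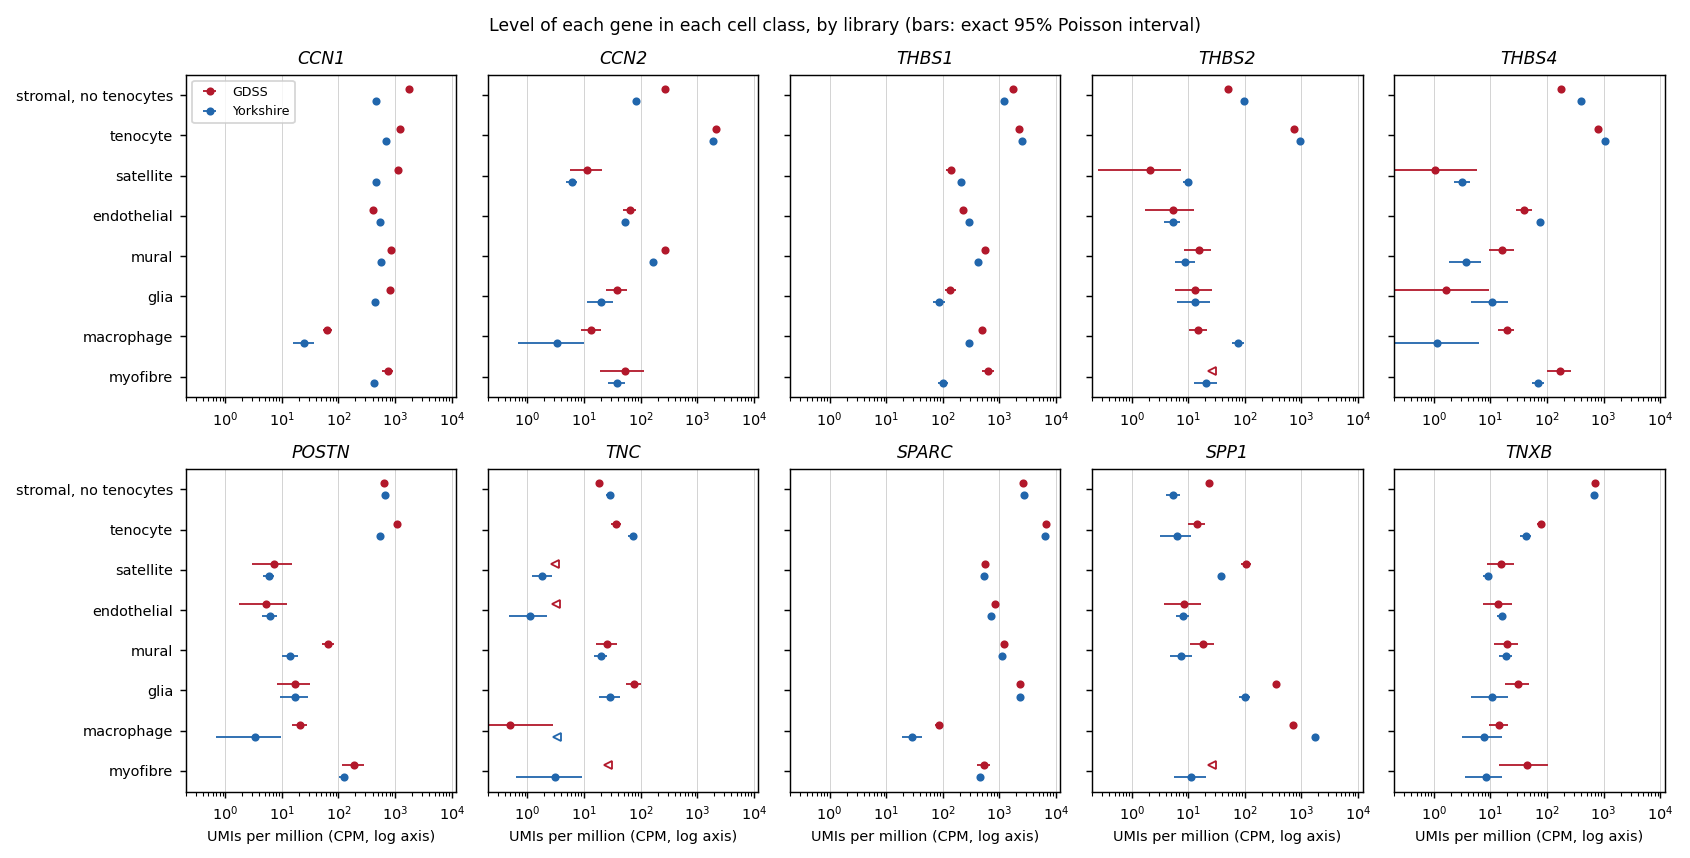
Level of each gene in CPM (log axis) in 8 cell classes, GDSS in red and Yorkshire in blue. Points are sums over cells of 1 library, bars are exact Poisson intervals, and open left-pointing triangles are upper limits (3 counts) where no UMI was counted. For 8 of the 10 genes the highest point in both libraries is in tenocytes or the other stromal cells.

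The stromal lineage held the highest level of 8 of the 10 genes in both libraries, against 9.46% of the 12048 genes examined in the same way. TNC and SPP1 were the exceptions. Stromal cells together exceeded the sum of all other classes by at least 1.5-fold for 9 of the 10 genes in GDSS and for 8 in Yorkshire, where CCN1 was not among them (ratio 1.05). The same held for 19.8% of all genes in GDSS and 17.7% in Yorkshire. SPP1 was lower in stromal cells than elsewhere in both libraries, a pattern of 24% of all genes in GDSS and 24.2% in Yorkshire.

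CCN1, which binds integrins and heparan sulphate and acts on adhesion and senescence, was well above the free RNA estimate in the classes outside macrophages and was higher in GDSS in most of them. In stromal cells without tenocytes its level was 1753 CPM in GDSS against 456 CPM in Yorkshire, which is 3.85-fold (3.72 to 3.97). With every cell thinned to 1500 UMIs, 63.8% of these cells had a CCN1 UMI in GDSS and 34.3% in Yorkshire. Tenocytes stood at 1235 and 694 CPM, satellite cells at 1108 and 457 CPM, and glia at 798 and 439 CPM, GDSS first in each case. The GDSS level was thus the higher one in all 3 of these classes, by 1.78-fold in tenocytes (1.66 to 1.91), 2.42-fold in satellite cells (2.27 to 2.59) and 1.82-fold in glia (1.58 to 2.10). Mural cells had 845 and 574 CPM, a ratio of 1.47 that stayed under 1.5. Endothelial cells went the other way, with 402 CPM in GDSS and 534 CPM in Yorkshire (Yorkshire over GDSS 1.33, 1.19 to 1.48).

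The order of classes for CCN1 differed between libraries as well. In GDSS the stromal cells outside tenocytes were highest, followed by tenocytes, satellite, mural, glial, myofibre and endothelial cells. In Yorkshire tenocytes came first, then mural and endothelial cells, while satellite cells (457 CPM, 446 to 469), the other stromal cells (456 CPM, 442 to 470), glia (439 CPM, 393 to 489) and myofibres (425 CPM, 385 to 468) did not differ beyond counting error. The tenocyte level was lower than that of the other stromal cells in GDSS (other stromal over tenocyte 1.42, 1.37 to 1.47) and higher in Yorkshire (tenocyte over other stromal 1.52, 1.43 to 1.62). Macrophages were the low end in both, at 64.0 CPM against 40.7 CPM of estimated free RNA in GDSS and 24.7 against 9.23 CPM in Yorkshire, with 4.91% and 6.73% of thinned macrophages carrying a UMI. Stromal cells supplied 89.7% of all GDSS UMIs of CCN1 but 23.5% of those in Yorkshire, where satellite cells gave 28.1%. The Yorkshire values lay near the classes' shares of cells, 18.9% for stromal and 31.4% for satellite cells. In GDSS 77.7% of cells were stromal. Within satellite cells the gap was 1459 to 439 CPM in cells with PAX7 and no MYOD1, and 901 to 474 CPM in cells with MYOD1.

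Among stromal gates outside tenocytes, CCN1 was higher in GDSS in every one with at least 20 cells per library. The gap ran from 1.95-fold in the PI16 gate (1199 and 615 CPM) to 5.38-fold in nerve sheath cells (1076 and 200 CPM, 4.52 to 6.43). In the MME gate the levels were 2299 and 697 CPM. The IRF8 gate had the highest GDSS level of all, 2836 CPM, and held 9 cells in Yorkshire, too few to compare.

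CCN2, which binds growth factors and is widely used as a marker of fibrotic and tendon matrix production, was a tenocyte gene in both libraries. Tenocytes had 2175 CPM in GDSS against 1930 CPM in Yorkshire (ratio 1.13, 1.08 to 1.18). At 1500 UMIs, 79.9% of GDSS and 68.7% of Yorkshire tenocytes had a CCN2 UMI. The other stromal cells had 275 and 82.4 CPM, a ratio of 3.34 (3.09 to 3.61), with 15.8% and 7.15% of cells positive. The step from other stromal cells to tenocytes was therefore 7.92-fold in GDSS (7.64 to 8.21) and 23.4-fold in Yorkshire (21.6 to 25.4). Tenocytes, a small share of cells, held 38.0% of all GDSS and 60.5% of all Yorkshire UMIs of CCN2.

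Tenocytes were 352 of the 8277 stromal cells in GDSS and 269 of 2408 in Yorkshire, and over all stromal cells together CCN2 stood at 426 and 395 CPM. Nerve sheath cells had 550 CPM of CCN2 in GDSS and 111 CPM in Yorkshire, KERA cells 454 and 183 CPM, and cells with no state marker 251 and 69.5 CPM. Outside the stroma, CCN2 was seen mainly in vessel walls. Smooth muscle cells with MYH11 had 514 CPM in GDSS and 252 CPM in Yorkshire, against 102 and 83.7 CPM in pericytes with RGS5 and no MYH11, which makes smooth muscle 5.02 times (3.58 to 7.20) and 3.01 times (2.28 to 4.02) as high. The mural class as a whole had 268 and 164 CPM (ratio 1.63, 1.40 to 1.90, log2 0.71), but the log2 ratio was 0.30 once the 10 cells with the most CCN2 UMIs in each library were left out. Satellite cells were at 11.5 and 6.06 CPM, below the estimated free RNA of 13.9 and 8.77 CPM, and 1.36% and 0.660% of them had a UMI at equal depth. The factor behind the free RNA estimate was higher in stromal cells (0.0946 in GDSS and 0.164 in Yorkshire) than in satellite cells (0.0397 and 0.0738). The satellite share is therefore not a measure of the background under the stromal 15.8% and 7.15%.

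THBS1, an activator of latent TGF-beta and a ligand of CD36 and CD47, was high across the stroma. Tenocytes had 2220 CPM in GDSS and 2546 CPM in Yorkshire, and the other stromal cells 1759 and 1192 CPM, a ratio of 1.48 (1.45 to 1.51) just under the 1.5 used here. At equal depth 54.4% and 46.6% of the other stromal cells were positive. By gate, THBS1 was higher in GDSS in PI16 cells (1498 and 891 CPM) and in cells with no state marker (1876 and 1101 CPM). In KERA (895 and 941 CPM), MME (2045 and 1971 CPM), FMO1 (1254 and 1531 CPM) and HHIP cells (922 and 1123 CPM) the libraries were less than 1.5-fold apart.

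In vessel walls THBS1 followed CCN2: smooth muscle cells had 1011 CPM in GDSS and 566 CPM in Yorkshire (ratio 1.79, 1.59 to 2.01), and pericytes 145 and 159 CPM. Satellite cells had the reverse order, 139 CPM in GDSS and 211 CPM in Yorkshire (Yorkshire over GDSS 1.52, 1.27 to 1.82, log2 ratio −0.60). Their estimated free RNA was 59.0 and 39.4 CPM. It rests on factors of 0.0397 and 0.0738, whereas stromal check genes stood at 0.112 and 0.303 of their all-cell level in satellite cells. The estimate is thus a low one for a stromal gene such as THBS1. With clusters in place of gates the log2 ratio was −0.44, short of 1.5-fold. In glia the levels were 136 and 87.2 CPM (ratio 1.56, 1.11 to 2.19, log2 0.64), and the log2 ratio was 0.35 after estimated free RNA was subtracted. In macrophages they were 495 and 288 CPM (ratio 1.72, 1.5 to 1.98, log2 0.78), but the 10 cells with most THBS1 held 71.4% of the GDSS and 96.1% of the Yorkshire UMIs. Without those cells the macrophage log2 ratio was 3.51, so its size depends on a few cells. Myofibres had 638 and 103 CPM (ratio 6.19, log2 2.63) from 72 and 100 UMIs, 97.2% of the GDSS UMIs being in 10 cells.

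THBS2 and THBS4, thrombospondins without the TGF-beta activating sequence, are known from tendon and connective tissue, where THBS4 takes part in the attachment of muscle to tendon. Both were at least 1.5-fold higher in Yorkshire in the stromal sum, in KERA cells, in PI16 cells and in cells with no state marker. THBS4 was so in nerve sheath cells too. In nerve sheath, MME, FMO1 and HHIP cells THBS2 had too few UMIs to be measured. For THBS2 the tenocytes had 732 CPM in GDSS and 941 CPM in Yorkshire (Yorkshire over GDSS 1.29, 1.20 to 1.38), and the other stromal cells 50.6 and 96.0 CPM (1.90, 1.74 to 2.07). The tenocyte level was 14.5 times the level of the other stromal cells in GDSS and 9.80 times in Yorkshire. KERA cells came next with 168 and 338 CPM, 3.92 and 4.91 times the other stromal cells outside tenocytes. Tenocytes alone held 52.8% of the GDSS and 51.6% of the Yorkshire UMIs of THBS2.

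THBS4 spread further. Tenocytes had 803 and 1074 CPM, nerve sheath cells 648 and 1123 CPM, and KERA cells 361 and 996 CPM, GDSS first. Nerve sheath cells therefore stood beside tenocytes, 3.88 and 3.54 times above the other stromal cells outside tenocytes, with 52.3% and 59.2% of cells positive at equal depth against 16.5% and 23.4% of all stromal cells without tenocytes. The Yorkshire level was higher by 1.73-fold in nerve sheath cells (1.53 to 1.97) and by 2.76-fold in KERA cells (2.48 to 3.07). In tenocytes the gap was 1.34-fold (1.25 to 1.43), under 1.5. The MME gate had the opposite order with 183 CPM in GDSS and 114 CPM in Yorkshire (ratio 1.60, 1.15 to 2.26), and the FMO1 (131 and 118 CPM) and HHIP gates (80.6 and 87.0 CPM) were less than 1.5-fold apart. With tenocyte, KERA and nerve sheath cells taken out, the remaining stroma was still 1.5-fold higher in Yorkshire (1.42 to 1.59), one of 2 members so (against 16% of all genes), while CCN1, CCN2 and SPP1 were higher in GDSS (3 of 10, against 7.02%).

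Outside the stroma both genes were lower, at most 168 CPM for THBS4 (19 UMIs in GDSS myofibres) and 76.4 CPM for THBS2 (Yorkshire macrophages). THBS4 in satellite cells, at 1.05 and 3.18 CPM, lay below the estimated free RNA of 7.19 and 10.1 CPM. Endothelial cells had 39.5 and 74.8 CPM of THBS4 (Yorkshire over GDSS 1.89, 1.36 to 2.72), and the log2 ratio of this class was −0.22 with cells thinned to 1500 UMIs, which ends the gap. Satellite cells had 2 THBS2 UMIs in GDSS and 132 in Yorkshire, 2.09 and 9.76 CPM, a ratio of 4.67 with a counting interval of 1.27 to 39.0 and a GDSS level under its free RNA estimate of 3.36 CPM.

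**Figure D2:**
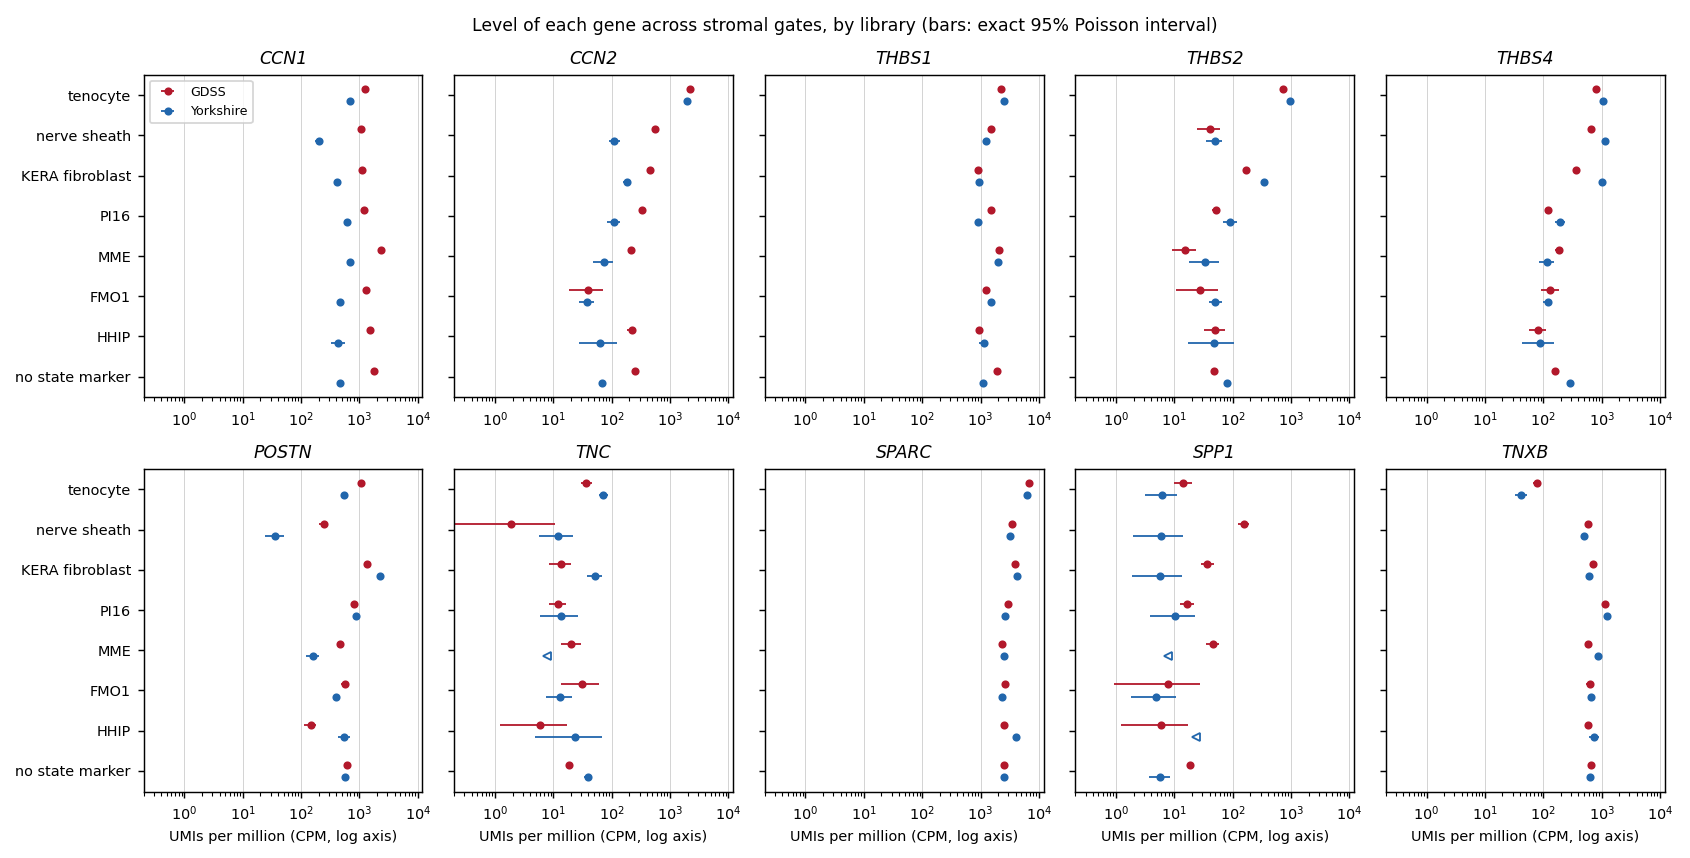
Level of each gene in CPM (log axis) in tenocytes and 7 other stromal gates, GDSS in red and Yorkshire in blue, with exact Poisson intervals as bars. CCN2 and THBS2 peak in tenocytes, POSTN peaks in KERA cells, and TNXB is lowest in tenocytes and highest in PI16 cells in both libraries.

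POSTN, a collagen-binding protein of mesenchymal matrix that supports collagen crosslinking, was a stromal gene with 97.5% of its GDSS and 85.8% of its Yorkshire UMIs in stromal cells. Summed over stromal cells it differed little, 670 CPM in GDSS and 650 CPM in Yorkshire. Its distribution within them was not the same. KERA cells had the highest level in both libraries, 1355 and 2218 CPM (Yorkshire over GDSS 1.64, 1.54 to 1.74). Tenocytes had 1064 and 537 CPM (GDSS over Yorkshire 1.98, 1.84 to 2.14), and nerve sheath cells 243 and 35.9 CPM (6.76, 4.51 to 10.4). Relative to the other stromal cells, tenocytes were higher in GDSS (1.67-fold, 1.60 to 1.75) and lower in Yorkshire (other stromal over tenocyte 1.25, 1.17 to 1.34).

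The share of cells with a POSTN UMI at equal depth was 37.9% in GDSS and 23.6% in Yorkshire outside tenocytes, although the summed levels there were 636 and 673 CPM. In Yorkshire 18.4% of stromal POSTN UMIs came from 10 cells, in GDSS 4.15%. The tenocyte gap depended on how tenocytes were defined: its log2 ratio was 0.99 with gates and 0.041 with clusters, which drew 1084 GDSS and 689 Yorkshire cells into the class. Mural cells had 66.4 and 14.1 CPM of POSTN (ratio 4.72, 3.14 to 7.15), from 65 and 41 UMIs and against free RNA estimates of 25.2 and 7.68 CPM. Those estimates rest on factors of 0.0477 and 0.0461, whereas stromal check genes stood at 0.0982 and 0.255 of their all-cell level in mural cells. They are thus low for a stromal gene such as POSTN, and how much of the mural level is free RNA was not settled. Satellite cells were below their estimate, 7.32 and 5.92 CPM against 21 and 12.3 CPM.

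TNC, a large hexameric glycoprotein of tendon, nerve and remodelling matrix, was sparse. Stromal cells had 19.6 CPM in GDSS and 35.7 CPM in Yorkshire (Yorkshire over GDSS 1.82, 1.59 to 2.08), with 1.92% and 3.2% of thinned cells positive. Tenocytes had 36.9 and 72.1 CPM (1.95, 1.47 to 2.60), 2.03 and 2.55 times the other stromal cells. Outside tenocytes 10 cells held 51.8% of the Yorkshire UMIs and 14.6% of the GDSS UMIs. The log2 ratio over all stromal cells was −0.86, and −0.48 without the 10 cells with the most TNC in each library. Without tenocytes it was −0.64, and −0.011 when 5 bins of cells by their level of dissociation and immediate early genes had equal weight, which ends the gap. The highest GDSS level was in glia, 75.5 CPM from 45 UMIs, where Yorkshire had 29.1 CPM from 22 UMIs, too few together to be compared. No TNC UMI was counted in GDSS satellite or endothelial cells, which allows up to 3.14 and 3.21 CPM, the level of 3 counts.

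SPARC, a collagen chaperone of the matrix, was less than 1.5-fold apart between the libraries in all classes but macrophages. Tenocytes had 6722 CPM in GDSS and 6357 CPM in Yorkshire (ratio 1.06, 1.03 to 1.08), the other stromal cells 2654 and 2781 CPM, and glia 2365 and 2354 CPM. The ordering was common to both libraries: tenocytes were 2.53 and 2.29 times the other stromal cells, and KERA cells 1.52 and 1.63 times the stromal cells outside tenocytes and their own gate. Nearly all thinned cells carried a UMI in stromal cells outside tenocytes (93.4% and 92.7%) and in glia (92.5% and 93.0%). Mural cells had 1201 and 1098 CPM, endothelial cells 828 and 702 CPM, and satellite cells 563 and 526 CPM. The HHIP gate was the exception within the stroma, 2548 and 4111 CPM (Yorkshire over GDSS 1.61, 1.46 to 1.79) in 127 and 33 cells. Macrophages had 86.5 and 29.2 CPM, close to the free RNA estimates of 69.5 and 25.7 CPM. Their log2 ratio of 1.57 turned to −0.32 when no doublet score was applied.

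SPP1, a phosphoprotein of macrophages, bone and regenerating muscle that binds integrins and CD44, was the one member led by an immune class. Macrophages had 709 CPM in GDSS and 1749 CPM in Yorkshire (Yorkshire over GDSS 2.47, 2.29 to 2.65), with 12.5% and 37.5% of thinned cells positive. The signal sat in few cells: 10 cells held 87.1% of the GDSS and 77.3% of the Yorkshire macrophage UMIs, and single cells reached 464 and 205 UMIs. Macrophages supplied 49.9% and 51.3% of all SPP1 UMIs, although they were 2.52% and 0.815% of cells.

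Glia came next for SPP1 and in the opposite direction, 361 CPM in GDSS and 99.1 CPM in Yorkshire (ratio 3.64, 2.78 to 4.80), with 28.9% and 8.68% of cells positive. Stromal cells had 22.3 and 5.57 CPM (4.01, 3.06 to 5.34). The Yorkshire stromal level was below its free RNA estimate of 10.5 CPM, and the GDSS level above its estimate of 7.12 CPM, so no ratio is left after subtraction. Satellite cells had 103 and 37.5 CPM (2.76, 2.20 to 3.43), but 10 cells held 82.8% of the GDSS UMIs, and without the top 10 of each library the log2 ratio turned from 1.46 to −0.33.

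TNXB, which spaces collagen fibrils in loose connective tissue, was the counterpart of the tenocyte genes. The stromal cells outside tenocytes had 696 CPM in GDSS and 681 CPM in Yorkshire (ratio 1.02, 0.993 to 1.05), and tenocytes 77.2 and 42.0 CPM, not far above the free RNA estimates of 48.3 and 23.7 CPM. Other stromal cells thus exceeded tenocytes by 9.02-fold in GDSS (7.78 to 10.5) and 16.2-fold in Yorkshire (12.9 to 20.7). The PI16 gate was highest in both libraries with 1155 and 1233 CPM, 1.82 and 1.93 times the stromal cells outside tenocytes and their own gate. Stromal cells held 97.5% of the GDSS and 87.4% of the Yorkshire UMIs. The tenocyte ratio of 1.84 (1.39 to 2.44, log2 0.88) was 0.51 on the log2 scale with clusters in place of gates. In satellite cells, at 15.7 and 8.95 CPM, TNXB lay below the free RNA estimates of 20.3 and 10.6 CPM. Their log2 ratio of 0.81 turned to −1.18 without the 10 cells with the most TNXB.

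Tenocytes were set against the other stromal cells within each library. In GDSS 6 of the 10 members were at least 1.5-fold higher in tenocytes (CCN2, THBS2, THBS4, POSTN, TNC and SPARC), against 9.31% of all genes, and 2 were lower (SPP1 and TNXB), against 38.8%. In Yorkshire 7 were higher (CCN1, CCN2, THBS1, THBS2, THBS4, TNC and SPARC), against 5.68%, and TNXB was lower, against 43.6%. CCN2, THBS2, THBS4, TNC and SPARC were thus shared. KERA cells had 6 members higher than the stromal cells outside tenocytes and their own gate in each library, against 5.7% of all genes in GDSS and 4.45% in Yorkshire, with CCN2, THBS2, THBS4, POSTN and SPARC in both. In GDSS 2 members were lower there (CCN1 and THBS1, against 13%), in Yorkshire none (against 18%). Nerve sheath cells had 3 higher in GDSS (CCN2, THBS4 and SPP1, against 23.9%) and 1 in Yorkshire (THBS4, against 29.4%). There CCN1, POSTN and TNC were lower in both libraries, among 3 lower members in GDSS (against 13.3%) and 4 in Yorkshire (against 10.8%). PI16 cells had TNXB alone higher in each library (against 4.63% in GDSS and 9.87% in Yorkshire). They had 3 members lower in GDSS (CCN1, THBS4 and TNC, against 7.68%) and 2 in Yorkshire (THBS4 and TNC, against 11.9%).

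**Figure D3:**
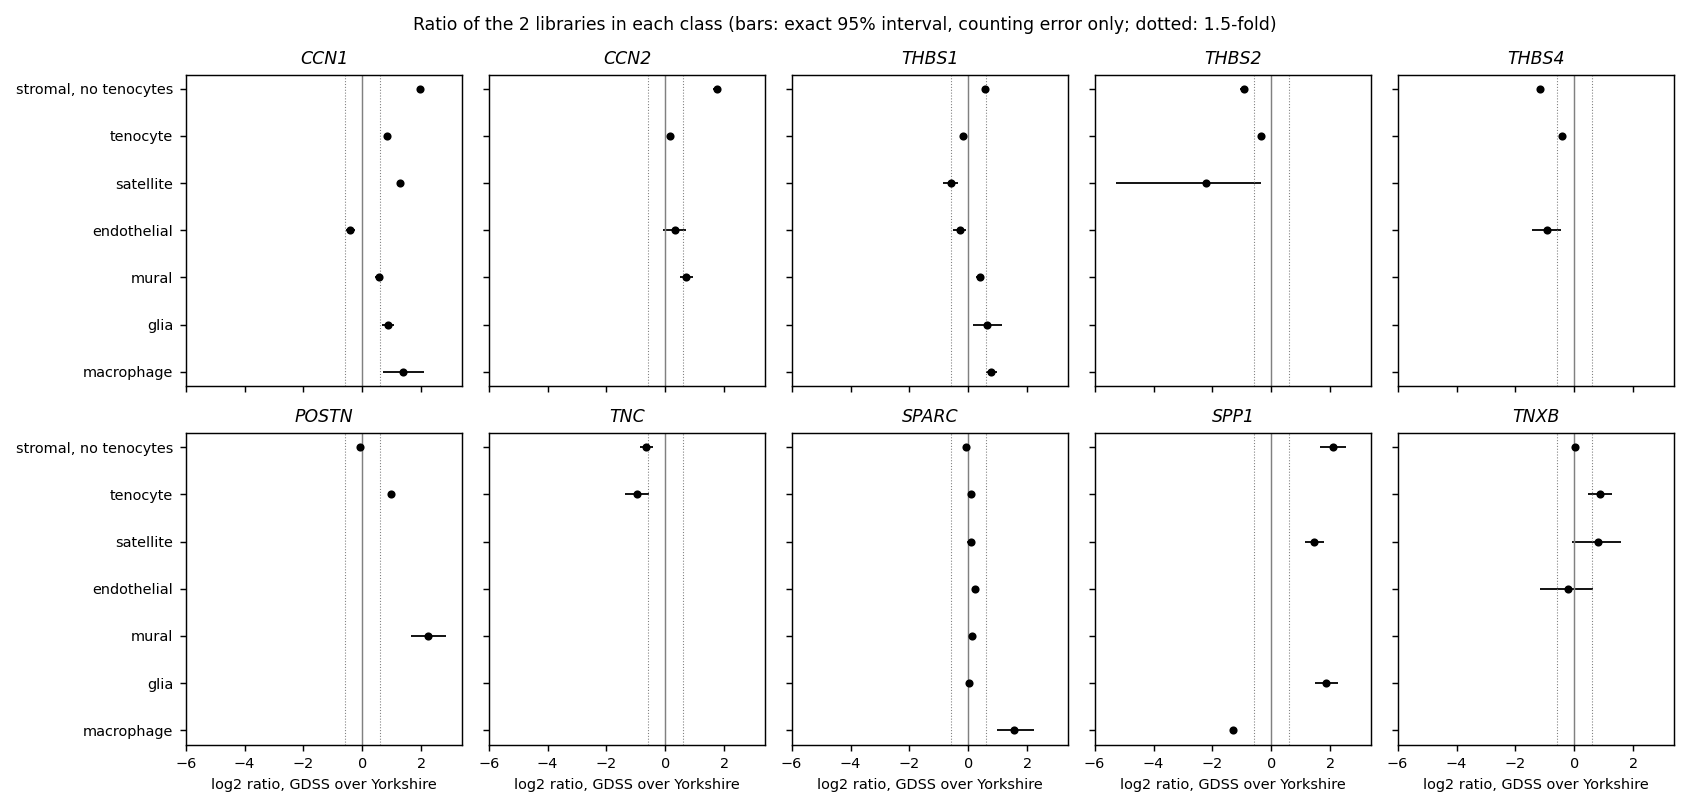
Log2 ratio of GDSS over Yorkshire for each measured gene in 7 cell classes, with exact conditional intervals as bars and dotted lines at 1.5-fold. CCN1 lies to the GDSS side in all classes drawn except endothelial cells, THBS2 and THBS4 lie to the Yorkshire side in stromal cells and tenocytes, and SPP1 falls on opposite sides in glia and macrophages.

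Between libraries, 2 of the 10 members were at least 1.5-fold higher in GDSS stromal cells (CCN1 and SPP1) and 3 in Yorkshire stromal cells (THBS2, THBS4 and TNC). Over all genes measured there, 6.49% were higher in GDSS and 16.6% in Yorkshire. The median log2 ratio of the members was 0.076 and that of all genes −0.14. With TMM factors, which set that centre at −0.13, the shares of all genes became 9.68% and 10.9%, while the members kept the same 2 and 3. Without tenocytes CCN2 joined CCN1 and SPP1 on the GDSS side (3 of 10, against 5.79%) and the Yorkshire side again counted 3 (against 18.8%), with a median of −0.017 beside −0.18 for all genes. With every stromal gate given equal weight, THBS2 (log2 −0.56) and TNC (−0.52) fell short of 1.5-fold and THBS4 alone was counted for Yorkshire.

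By gate, tenocytes had CCN1, POSTN and TNXB higher in GDSS (3 of 9 measured, against 11.4% of all genes) and TNC higher in Yorkshire (1 of 9, against 10.3%). KERA cells had CCN1 and CCN2 higher in GDSS (2 of 8, against 10.3%) and THBS2, THBS4 and POSTN higher in Yorkshire (3 of 8, against 10.2%). Nerve sheath cells had CCN1, CCN2 and POSTN higher in GDSS (3 of 7, against 9.92%) and THBS4 in Yorkshire (1 of 7, against 20.6%). PI16 cells had CCN1, CCN2 and THBS1 higher in GDSS (3 of 8, against 8.7%) and THBS2 and THBS4 in Yorkshire (2 of 8, against 14.8%). MME cells had CCN1, CCN2, THBS4 and POSTN higher in GDSS (4 of 7, against 12.1%) and none higher in Yorkshire (against 12.2%). HHIP cells had CCN1 and CCN2 higher in GDSS (2 of 6, against 17.1%) and POSTN and SPARC in Yorkshire (2 of 6, against 9%). FMO1 cells had CCN1 alone in GDSS (1 of 6, against 10.6%) and none in Yorkshire (against 15.9%). Cells with markers of several states had 2 of 7 members higher in GDSS (against 12.9%) and 1 in Yorkshire (against 11.1%), and cells with no state marker 4 of 10 (CCN1, CCN2, THBS1 and SPP1, against 7.59%) and 3 (THBS2, THBS4 and TNC, against 15.1%). CCN1 and CCN2 were on the GDSS side together in KERA, nerve sheath, PI16, MME and HHIP cells, whereas in tenocytes CCN1 was and CCN2 was not.

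In the other classes the counts on the GDSS side were 3 of 6 measured members in satellite cells (CCN1, SPP1 and TNXB, against 12.1%) and 2 of 5 in mural cells (CCN2 and POSTN, against 7.19%). They were 3 of 4 in glia (CCN1, THBS1 and SPP1, against 10.1%), 3 of 4 in macrophages (CCN1, THBS1 and SPARC, against 11.4%) and 2 of 4 in myofibres (CCN1 and THBS1, against 8.63%). Endothelial cells had none (against 8.45%). On the Yorkshire side they were 2 of 6 in satellite cells (THBS1 and THBS2, against 21.5%), 1 of 6 in endothelial cells (THBS4, against 14.5%), and 1 of 4 in macrophages (SPP1, against 13.7%). Mural cells (13.9% of all genes), glia (19.4%) and myofibres (16.9%) had no member on that side. Smooth muscle cells had CCN1, CCN2 and THBS1 higher in GDSS (3 of 4, against 9.37%) and none in Yorkshire (against 16.8%). Within libraries, smooth muscle exceeded pericytes for 3 of 4 members in GDSS (CCN1, CCN2 and THBS1, against 17%) and for 2 in Yorkshire (CCN2 and THBS1, against 16.4%), and pericytes exceeded smooth muscle for none (against 9.81% and 6.51%). Of these, SPP1 and TNXB in satellite cells and SPARC in macrophages are the 3 whose direction turned in an alternative given above. The macrophage CCN1 ratio of 2.59 stands on levels of 64.0 and 24.7 CPM, of which the estimated free RNA is the larger part in GDSS. For THBS1 and THBS2 in satellite cells and POSTN in mural cells the free RNA estimate is a low one, and satellite THBS2 had 2 UMIs in GDSS.

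A list of 12 dissociation and immediate early genes, which respond to tissue handling and stress, also differed between the libraries. Its summed level was 43016 CPM in GDSS and 22895 CPM in Yorkshire in stromal cells without tenocytes, 25114 and 19714 CPM in tenocytes, 32370 and 31335 CPM in satellite cells, and 13485 and 24670 CPM in macrophages. In stromal cells 8 of its 12 genes exceeded 1.5-fold towards GDSS (against 6.49% of all genes) and none towards Yorkshire (against 16.6%), and the median log2 ratio was 0.78 beside −0.14 for all genes. The 4 with the largest ratio were the chaperone genes DNAJB1 (5465 and 1545 CPM), HSPH1 (2275 and 839 CPM) and HSPA8 (5949 and 2414 CPM) and the RNA-binding regulator ZFP36 (2850 and 1252 CPM).

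**Figure D4:**
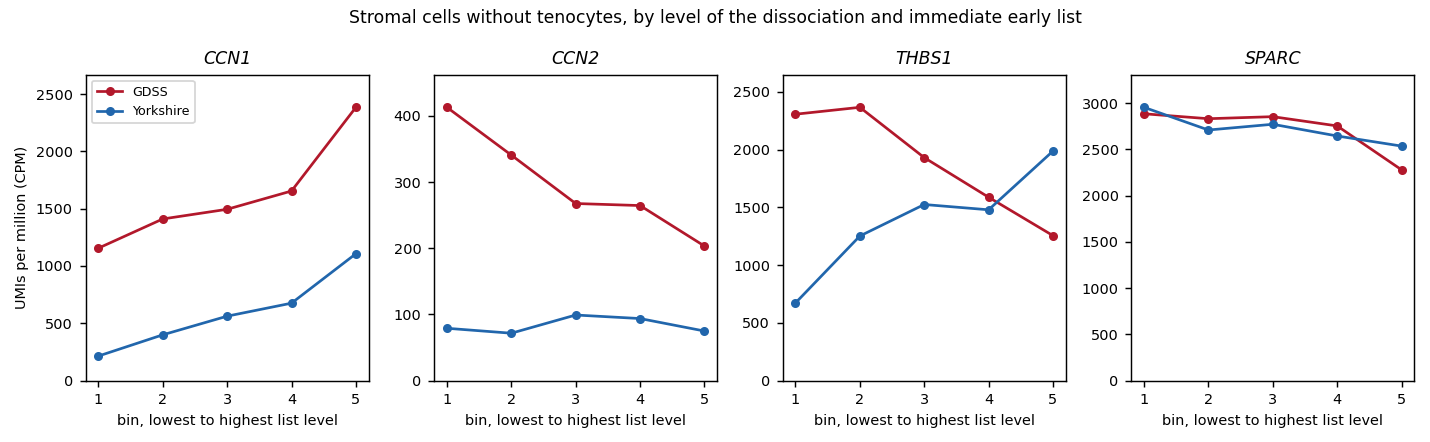
Level in CPM (linear axis from 0) of CCN1, CCN2, THBS1 and SPARC in stromal cells without tenocytes, split into 5 bins by the summed share of the dissociation and immediate early list in each cell, GDSS in red and Yorkshire in blue. CCN1 climbs with the bin in both libraries, THBS1 climbs in Yorkshire and declines in GDSS, and SPARC is level between libraries in each bin.

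Stromal cells without tenocytes were therefore split into 5 bins of this list with the same boundaries in both libraries. CCN1 increased with the list in both: from 1155 CPM in the lowest bin to 2384 CPM in the highest in GDSS, and from 214 to 1107 CPM in Yorkshire. Within bins the GDSS level was still the higher one, by 5.41-fold in the lowest, then 3.53, 2.66, 2.45 and 2.15-fold. The gap was thus present in all 5 bins and smallest in the highest, which held 2707 GDSS and 183 Yorkshire cells. The bins share boundaries, but the list levels of the 2 libraries within a bin were not compared. CCN2 had ratios of 5.23, 4.76, 2.70, 2.82 and 2.72, with GDSS levels of 413 CPM in the lowest and 203 CPM in the highest bin and Yorkshire levels between 71.5 and 99.0 CPM. THBS1 had the ratios 3.43, 1.89, 1.27, 1.07 and 0.632, crossing from the GDSS to the Yorkshire side. SPARC stayed between 0.899 and 1.05. Whether handling has a part in the differences between libraries was not tested.

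Genes of 4 further lists were read in the same stromal sums, where 6.49% of all genes were higher in GDSS and 16.6% in Yorkshire (5.79% and 18.8% without tenocytes). Of 13 measured YAP and TEAD pathway genes, none was at least 1.5-fold higher in GDSS and 5 were higher in Yorkshire (median log2 −0.21), among them the target ANKRD1 (5.44 CPM in GDSS and 11.9 CPM in Yorkshire) and the transcription factor TEAD1 (32.2 and 63.2 CPM). The Yorkshire count was 3 of 12 without tenocytes and 2 of 12 without the KERA and nerve sheath gates as well. CCN1, counted apart from this list, stood on the other side. Of 8 TGF-beta pathway genes, 3 were higher in GDSS and 1 in Yorkshire (median 0.073), and 2 and 2 without tenocytes. SMAD7, the inhibitory SMAD, had 28.2 and 17.6 CPM, and the ligand TGFB1 31.6 and 20.9 CPM.

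Of 13 measured receptors and partners of these proteins, none was higher in GDSS and 5 were higher in Yorkshire (median log2 −0.083), 5 of 13 without tenocytes and 3 of 12 without the KERA and nerve sheath gates as well. The integrin subunit ITGA6, part of laminin receptors, had 2.41 and 12.7 CPM, and ITGA9, whose receptor binds TNC and SPP1, 9.08 and 19.8 CPM. CACNA2D1, the calcium channel subunit that binds thrombospondins, had 19.3 and 40.1 CPM. Of 13 other measured matricellular genes, 2 were higher in GDSS and 5 in Yorkshire (median −0.065). Without tenocytes the balance turned to 3 of 12 in GDSS and 2 in Yorkshire (median 0.084). The largest ratios were those of the proteoglycan SPOCK2 (2.44 and 8.64 CPM), of SMOC1 (5.16 and 17.4 CPM), of the cartilage and tendon thrombospondin COMP (177 and 564 CPM) and of the SPARC relative SPARCL1 (896 and 1445 CPM). COMP came almost wholly from tenocytes, with levels of 2179 (GDSS) and 3314 CPM (Yorkshire) there against 5.01 and 4.51 CPM in the other stromal cells. The all-gene median of −0.14 applies to each of these lists.

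Members occurred in the same cells to differing degrees. In thinned stromal cells without tenocytes, CCN2 was seen in 18.2% of GDSS cells with CCN1 and 11.6% of those without, and in 11.6% and 4.85% in Yorkshire. THBS1 was seen in 61.4% of GDSS cells with CCN1 and 41.9% of those without, and in 56.3% and 41.6% in Yorkshire. THBS4 was found in 28.4% of GDSS cells with THBS2 and 15.8% of those without, and in 39.4% and 21.7% in Yorkshire. THBS2 was found in 8.11% of GDSS cells with POSTN and 4.23% of those without, and in 18.1% and 7.12% in Yorkshire. These pairs went together in both libraries, whereas POSTN made no difference to THBS1, seen in 54.1% and 54.6% of GDSS cells with and without POSTN and in 45.6% and 47.0% in Yorkshire. Such shares are a description of cells of the same library and have no test.

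Across the 33 class profiles of both libraries, the genes with the most similar pattern were found by Pearson's r of log2 CPM. The profiles share 2 libraries and differ in depth, so r is a description. TNXB ran closest to MFAP5 (0.985), PDGFRA (0.972) and VIT (0.970), of which MFAP5 and PDGFRA were used for gating. SPARC ran closest to RCN1 (0.926), SELENOM (0.917) and EFEMP2 (0.916), and POSTN to ISM1 (0.917), MFAP2 (0.910) and KAZALD1 (0.892). For THBS1 the nearest were MFAP2 (0.893), TFPI (0.889) and RHOD (0.882), for THBS2 CPZ (0.884), CTHRC1 (0.850) and FMOD (0.849), and for THBS4 DCN (0.854), COL1A1 (0.840) and COL6A3 (0.821). CCN2 was nearest to SELENOM (0.852), RABAC1 (0.825) and FMOD (0.811), and CCN1 to TRMT112 (0.871), GADD45B (0.817) and GPX8 (0.812), a separate set of neighbours. The lowest values were those of TNC with COL12A1 (0.769), SLITRK6 (0.760) and CTHRC1 (0.739), and of SPP1 with DEGS1 (0.782), MAPK6 (0.766) and FTL (0.757). Among the members, THBS4 and POSTN had an r of 0.811, CCN1 and CCN2 one of 0.516, and SPP1 had negative values with the others, from −0.490 to −0.0260.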

How the data were processed

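The authors deposited raw UMI counts for every gene and barcode, 1 library per breed. Per the submitters' processing notes these came from Cell Ranger, in software version 3.1.0 per the file headers. The notes also name R 3.5.2 without a role. The aligner settings, genome build, annotation and use of strand are not given in the sources used here. Neither coordinates nor sequences are printed. The deposited matrices held 42093851 (GDSS) and 54300953 (Yorkshire) counts in 12286 and 14695 barcodes, each with at least 500 UMIs. Of the 21301 features, 14846 carried a symbol, and 687 of the 6455 others were given one from a reference table. In RefSeq genes of assembly Sscrofa11.1, CCN1 overlaps ZNHIT6, TNXB overlaps CYP21A2 and ATF6B, and THBS4, POSTN and SPARC overlap genes without a symbol or of tRNA. Reads of overlapping genes cannot be told apart.

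Barcodes with at least 500 genes and at most 10% mitochondrial UMIs were kept. Doublets were scored with scrublet. The threshold it sets by itself marked 1 barcode in GDSS (0.00814%) and 389 in Yorkshire (2.65%) and did not work in GDSS. Cells scoring at least 0.3, a limit set with the scores in view, were removed in both. A marker was on in a cell with at least 1 UMI and at least 0.25 times its mean level. A class needed 2 markers on (4 for myofibres, 3 including TNMD for tenocytes) and a share of markers on at least 1.5 times that of the next class. Stromal states needed 2 UMIs of their marker genes. ERBB3 was left out as a marker of glia after its counts were seen. No class of B cells, the lineage that CD79A marks, was gated.

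Raw counts were summed per class and library. Levels carry exact Poisson, shares exact Clopper-Pearson and ratios exact conditional binomial intervals at 95%. A count of 0 was set to a floor of 3 counts over the class. For shares, cells were thinned to 1500 UMIs and shallower cells left out. Comparisons within a library needed 20 cells. Similar patterns used log2(CPM + 1) of genes with at least 200 UMIs. The ratio and gate steps were tested on simulated data.

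Levels of all members were computed in every class, though not every value is printed. Up to 4 genes of each list with the largest ratio and the 3 genes most like each member were named. COMP in the stromal parts was added after its values were seen. One gene of a list is not reported here. The members, lists and gates were chosen with earlier results of these data known. Sums and intervals used Python 3.11.15 with pandas 2.3.3, numpy 2.4.6 and scipy 1.17.1. Clusters used scanpy 1.11.5, igraph 0.11.9, scikit-learn 1.9.0 and anndata 0.12.19. Figures used matplotlib 3.10.9, and edgeR 4.0.16 in R 4.3.3 gave TMM factors only.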

Additional observations from a re-analysis of the deposited data

Results flagged for a closer look

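For 5 of the members, some cell classes or stromal gates lay at least 1.5-fold towards GDSS and others as far towards Yorkshire. With 1 library per breed the difference between classes was not tested. THBS1 had a log2 ratio of GDSS over Yorkshire of −0.60 in satellite cells, but 0.75 in PI16 cells, 0.77 in stromal cells with no state marker, 0.64 in glia, 0.78 in macrophages and 2.63 in myofibres. THBS4 had −1.17 in stromal cells, −1.16 in stromal cells without tenocytes, −0.79 in nerve sheath cells, −1.46 in KERA cells, −0.71 in PI16 cells, −0.85 in cells with no state marker and −0.92 in endothelial cells, but 0.68 in MME cells. POSTN had 0.99 in tenocytes, 2.76 in nerve sheath cells, 1.56 in MME cells and 2.24 in mural cells, but −0.71 in KERA cells, −1.93 in HHIP cells and −0.78 in cells with markers of several states. SPARC had 1.57 in macrophages and −0.69 in HHIP cells. SPP1 had 2.0 in stromal cells, 2.08 in stromal cells without tenocytes, 1.73 in those with no state marker, 1.46 in satellite cells and 1.86 in glia, but −1.30 in macrophages. Several of these values depended on the setting. SPARC is counted only through macrophages, at −0.32 with no doublet score, and THBS1 only through satellite cells, at −0.44 with clusters. POSTN in tenocytes was 0.041 with clusters, and SPP1 in satellite cells −0.33 without the 10 top cells. The POSTN value of HHIP cells stands on 74 UMIs in 127 GDSS cells and 70 UMIs in 33 Yorkshire cells. THBS4 in endothelial cells fell short of 1.5-fold with thinned cells.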

How the results depend on the processing

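No paired analysis was possible because each breed had 1 library, and for the same reason no replicate could be left out. Beside the values reported, 15 other settings were run, 3 of them chosen after seeing the data: stromal cells without tenocytes, equal weight per bin of the dissociation list, and leaving out the 10 cells with the most UMIs of the gene. The 2 members higher in GDSS stromal cells became 1 when estimated free RNA was subtracted, since Yorkshire SPP1 was then at 0 and had no ratio. The 3 higher in Yorkshire became 1 with equal weight for each of 9 stromal gates. The 8 members highest in the stromal lineage were 8 with no doublet score, a stricter gate and subtracted free RNA, and 7 with clusters.

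The members' stromal median log2 ratio, 0.076, was 0.16 with no doublet score, 0.024 at 5% mitochondrial UMIs, 0.021 with a stricter gate, −0.013 with clusters, 0.21 with TMM factors, 0.21 with median-of-ratios size factors, 0.17 with thinned cells, −0.070 with equal weight per gate, −0.0064 after subtracting free RNA and −0.017 without tenocytes. Of 44 ratios of a member in a class, 24 were at least 1.5-fold apart, and 13 of these stayed so in the same direction in every setting that gave a value. Another 3 turned: SPP1 in satellite cells (1.46 to −0.33) and TNXB in satellite cells (0.81 to −1.18) without the 10 top cells, and SPARC in macrophages (1.57 to −0.32) with no doublet score. The cause was not tested. CCN1 in stromal cells ranged from 1.45 to 1.94. Thinning to 1500 UMIs took the THBS4 endothelial ratio from −0.92 to −0.22.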
